A study of Mus musculus with 4 samples.

Results

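The enzymes that turn cholesterol into bile acids in the liver were examined as a group of 10 genes, *Cyp7a1*, *Cyp8b1*, *Cyp27a1*, *Cyp7b1*, *Hsd3b7*, *Akr1d1*, *Amacr*, *Acox2*, *Slc27a5* and *Baat*. They were picked by name, as the entries of the gene abundance table that carry these symbols, and not by their values. All 10 were found among the 35739 genes of that table, and all 10 were among the 9581 genes that passed the filter on low values (a mean of at least 1 TPM). TPM, which states a gene's share of all transcripts in a library, is an abundance corrected for transcript length, so TPM values can be compared between genes.

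Liver RNA was sequenced in 2 libraries per genotype, numbered 2 and 3 for WT and 1 and 3 for *Usp21* KO. *Usp21* encodes a deubiquitylase, an enzyme that removes ubiquitin from other proteins. The KO is constitutive, in liver as in other tissues. Its allele lacks exons 3 and 4, which were cut out by a cross with mice that express Cre recombinase, and the promoter of that Cre was not given in the sources used here. WT and KO mice were littermates of 10 to 11 weeks on a mixed B6 × 129/Sv background and a normal diet. The KO alleles descend from 129/Sv ES cells, so 129/Sv sequence close to *Usp21* cannot be told apart from the KO itself. The labels name neither sex nor batch, and the hour of collection and fasting state are not given in the sources used here. The labels do not say more about how the replicates were taken, so the p-values measure the spread between these 4 samples, which may be technical in part.

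Bile acids are made from cholesterol by hepatocytes, and their synthesis is a main way by which the body disposes of cholesterol. The classic pathway opens with CYP7A1 in the endoplasmic reticulum, and CYP8B1 then decides how much of the product becomes cholic acid. The alternative pathway opens with the mitochondrial CYP27A1, whose oxysterol products are hydroxylated by CYP7B1. Both pathways share the enzymes that modify the sterol rings (HSD3B7, AKR1D1) and shorten the side chain in peroxisomes (AMACR, ACOX2). They also share those that join the bile acid to taurine (SLC27A5, BAAT).

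Bile acid genes are controlled largely at transcription, so the stretch just before the start is shown for *Akr1d1*, the lower member with the smallest p, and for *Cyp8b1*, a classic target of the nuclear receptor HNF4A. Both windows are the 250 bases before the RefSeq start on GRCm38.p6, written 5′ to 3′ in the direction of the gene, chr6:37529923-37530172 (forward strand) for *Akr1d1* and chr9:121916306-121916555 (reverse strand) for *Cyp8b1*. Capitals mark the letters of the motifs that were searched for.

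Akr1d1: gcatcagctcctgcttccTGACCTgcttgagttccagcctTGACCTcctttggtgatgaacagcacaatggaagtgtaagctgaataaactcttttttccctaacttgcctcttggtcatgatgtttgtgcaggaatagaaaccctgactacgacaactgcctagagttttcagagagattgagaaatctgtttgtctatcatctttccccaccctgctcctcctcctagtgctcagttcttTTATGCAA
Cyp8b1: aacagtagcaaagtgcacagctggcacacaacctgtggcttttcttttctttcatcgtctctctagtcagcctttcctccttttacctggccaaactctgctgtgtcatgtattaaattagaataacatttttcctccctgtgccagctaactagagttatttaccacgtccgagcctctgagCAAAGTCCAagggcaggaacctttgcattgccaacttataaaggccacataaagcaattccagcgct

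The RefSeq promoter table held 5 of the 10 genes (*Cyp8b1*, *Cyp27a1*, *Akr1d1*, *Hsd3b7* and *Acox2*), and motifs were searched as exact letters on both strands. The letters CAAAGTCCA, a site of the kind HNF4A binds, occur in *Cyp8b1* from -67 to -59, counted back from the start, and in 0.384% of all 32851 promoter windows. AGGTCA, a nuclear receptor half-site, occurs on the reverse strand of *Akr1d1* (printed as TGACCT) from -232 to -227 and from -210 to -205, and in 14.024% of all windows. TTATGCAA, a site read by C/EBP and PAR bZIP factors, lies at -8 to -1 in *Akr1d1* and in 0.694% of all windows, and it was added to the search after the sequence had been read. None of the 5 genes held CAAGGTCA (an LRH-1 site that contains the half-site, in 1.333% of windows), TTATGTAA (0.819%) or TTACGTAA (0.113%), the last pair being D-box sites of the factors DBP, TEF and HLF. A match is a description of the letters and does not show that a factor binds there.

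No member of the pathway passed the adjusted threshold between genotypes. The member furthest from the WT values was *Cyp7b1*, with 1.90 times the mean WT abundance in the KO livers, and the clearest lower member was *Akr1d1*, with 0.725 times. The other members, the rate-limiting *Cyp7a1* included, had intervals that contained 0. In limma on log2(TPM + 1) with Benjamini-Hochberg adjustment over all 9581 genes, 0 of the 10 members had an adjusted p under 0.05, compared with 8 genes in all (0.0835% of those tested). At an unadjusted p under 0.05 there were 2 of the 10, compared with 10.5% of all genes. With 2 libraries per genotype, an exact permutation test of 1 gene cannot go below p = 0.333.

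**Figure D1:**
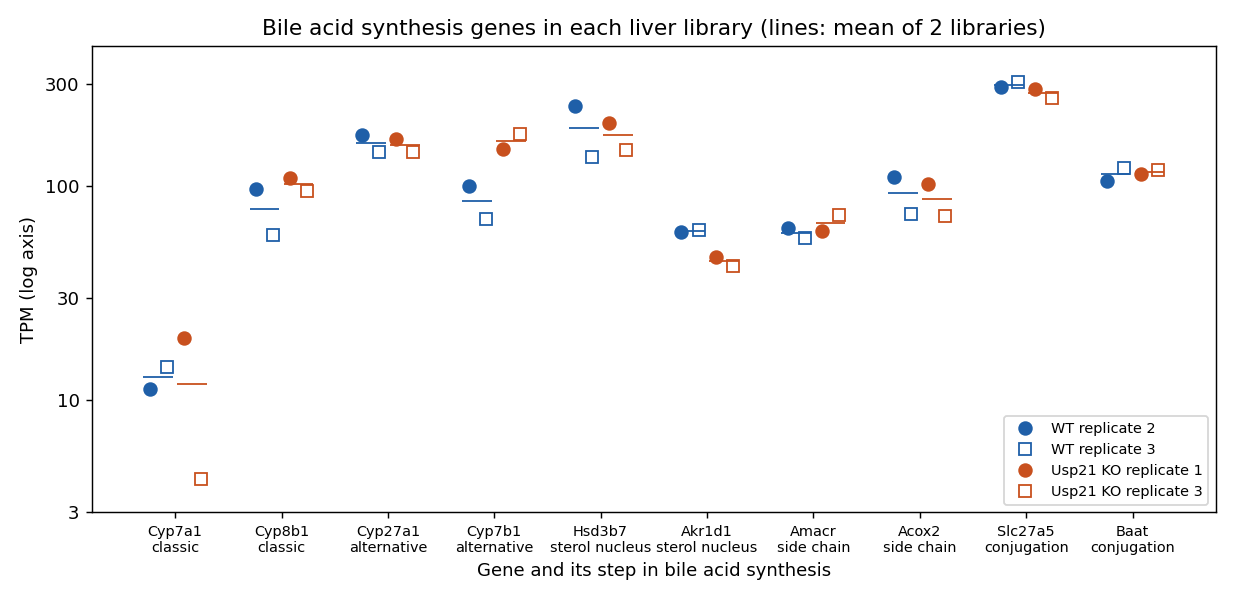
Abundance (TPM, log axis) of the 10 genes in each of the 4 libraries, with the step each gene belongs to under its name; circles and squares are single libraries, blue for WT and orange for *Usp21* KO, and short lines are the means of 2 libraries. Both KO points lie above both WT points for *Cyp7b1* and below them for *Akr1d1*, while the KO points of *Cyp7a1* lie on either side of the WT points.

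Among the 10 genes, *Slc27a5* had the highest and *Cyp7a1* the lowest TPM in every library. The 10 genes added up to 1246 and 1043 TPM for WT, against 1246 and 1131 TPM for KO, or from 0.105% to 0.125% of all TPM. The sum overlapped between genotypes, and the largest part of it was *Slc27a5*, which held from 22.6% to 29.2%. The part of *Cyp7b1* was 8.03% and 6.74% for WT, against 12.0% and 15.4% for KO, which did not overlap. The part of *Cyp7a1* was between 0.382% and 1.57%, with both extremes in the KO libraries.

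The classic pathway came first. *Cyp7a1* (chromosome 4, 6265612 to 6275633, reverse strand, 6 exons) encodes cholesterol 7α-hydroxylase, the rate-limiting enzyme of the classic pathway, and it follows the day-night rhythm and feeding. WT livers gave 11.2 and 14.3 TPM, against 19.5 and 4.31 TPM for KO livers. The KO libraries held both the highest and the lowest value and differed 4.52-fold from each other, compared with 1.28-fold between the WT libraries. The fitted log2 fold change was -0.39 (SE 0.62, 95% interval -1.93 to 1.15, adjusted p = 0.824 from limma), and on the linear scale the interval runs from 0.262 to 2.22 times the WT level. Without KO replicate 3 the direction turned (0.58). A 2-fold higher and a 2-fold lower level are both inside this interval, so a difference in *Cyp7a1* was not detectable with these libraries.

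*Cyp8b1* (chromosome 9, 121914356 to 121916305, reverse strand, a gene of 1 exon) encodes sterol 12α-hydroxylase, which is needed for cholic acid. Its abundance was 97.2 and 59.0 TPM for WT, against 109 and 94.8 TPM for KO. The genotypes overlapped, because 1 KO library lay below WT replicate 2. The log2 fold change was 0.42 (SE 0.27, 95% interval -0.25 to 1.09, adjusted p = 0.578 from limma), and leaving out single libraries moved it between 0.07 and 0.78.

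In the alternative pathway, the values of *Cyp27a1* overlapped between genotypes and those of *Cyp7b1* did not. *Cyp27a1* (chromosome 1, 74713574 to 74737892, forward strand), the mitochondrial sterol 27-hydroxylase, was at 173 and 144 TPM in WT livers, against 166 and 145 TPM in KO livers. Its WT and KO values covered nearly the same range, and the log2 fold change was -0.03 (SE 0.18, 95% interval -0.48 to 0.43, adjusted p = 0.965 from limma).

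*Cyp7b1* (chromosome 3, 18071950 to 18243338, reverse strand, 6 exons) encodes oxysterol 7α-hydroxylase, which acts on the products of CYP27A1 and also on other oxysterols. WT livers had 100.1 and 70.3 TPM, whereas KO livers had 149 and 174 TPM. Each KO value exceeded each WT value, and the means were 85.2 ± 21.1 TPM in WT and 162 ± 17.8 TPM in KO (SD, n = 2 each). The log2 fold change was 0.94 (SE 0.23, 95% interval 0.37 to 1.496), or 1.91-fold on the log2(TPM + 1) scale with an interval of 1.30 to 2.82. The unadjusted p was 0.00692 and the adjusted p was 0.458 in limma, so the difference did not pass over all genes, and *Cyp7b1* ranked 141 of all tested genes by p. Leaving out single libraries kept the log2 fold change between 0.68 and 1.19.

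The ratio of *Cyp7b1* to *Cyp27a1* within a library, which does not depend on how the libraries are scaled, was 0.579 and 0.489 in WT and 0.899 and 1.21 in KO, so it was higher in both KO libraries. The ratio of *Cyp7b1* to *Cyp8b1* was 1.03 and 1.19 in WT and 1.36 and 1.84 in KO, which also did not overlap. In contrast, the ratio of *Cyp7b1* to *Cyp7a1*, which sets the alternative against the classic pathway, was 8.92 and 4.90 in WT and 7.65 and 40.4 in KO. This ratio overlapped between genotypes, with KO replicate 3, where *Cyp7a1* had its lowest value, far above the other libraries.

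*Cyp7b1* is expressed more strongly in male than in female mouse liver, so genes of the sexes were read beside it. The Y-linked genes *Ddx3y*, *Kdm5d*, *Eif2s3y* and *Uty* were above 0 in all 4 libraries. *Xist*, also listed as sex-linked, was not found among the genes with TPM values and could not be read. The 5 female-biased genes, with *Cyp2b9* the most abundant, together had at most 0.869 TPM in a library. Of 6 male-biased genes, 5 were higher in KO by the means (4 after TMM scaling) and 2 did not overlap between genotypes, both higher, a share near the 34.4% of all tested genes that were higher without overlap. One of them was *Elovl3*, a fatty acid elongase, at 87.5 and 10.8 TPM for WT, against 253 and 208 TPM for KO (adjusted p = 0.464 from limma). The highest of the list, *Mup20*, a major urinary protein, was at 10129 and 21688 TPM for WT, against 19129 and 23268 TPM for KO. Whether these genes and *Cyp7b1* share a cause was not tested.

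**Figure D2:**
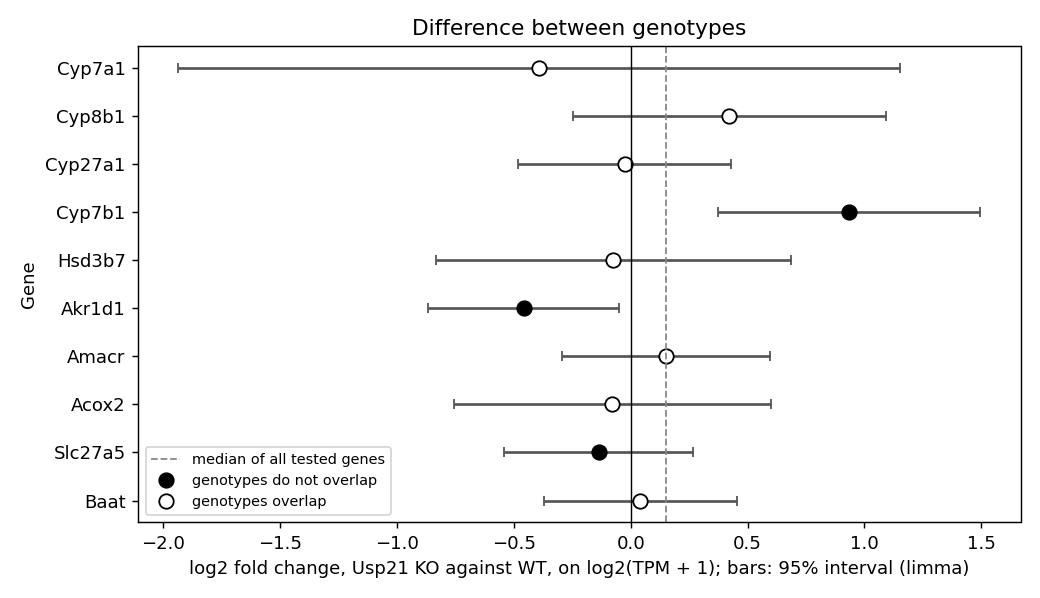
log2 fold change of each gene, *Usp21* KO against WT, on log2(TPM + 1), with the 95% interval from limma as bars; filled points are genes whose KO and WT libraries do not overlap, open points overlap, and the dashed line is the median of all 9581 tested genes (0.15). *Cyp7b1* at 0.94 and *Akr1d1* at -0.46 are the genes whose interval does not contain 0, and *Cyp7a1* has the widest interval.

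Both ring-modifying enzymes come after the 7α-hydroxylases. *Akr1d1* (chromosome 6, 37530173 to 37568815, forward strand, 9 exons), whose window is printed above, encodes the 5β-reductase that gives bile acids their bent ring shape and also reduces steroid hormones. WT livers had 60.7 and 62.1 TPM, whereas KO livers had 46.7 and 42.4 TPM. Each KO value was under each WT value, and the libraries within each genotype were close together, with means of 61.4 ± 0.965 TPM in WT and 44.5 ± 3.01 TPM in KO (SD, n = 2 each). The log2 fold change was -0.46 (SE 0.16, 95% interval -0.86 to -0.05), with an unadjusted p of 0.0340 and an adjusted p of 0.464 in limma. It was between -0.52 and -0.39 with single libraries left out.

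*Hsd3b7* (chromosome 7, 127800604 to 127803802, forward strand), the 3β-hydroxy-Δ5-C27-steroid oxidoreductase, was at 236 and 136 TPM for WT, against 196 and 148 TPM for KO. The spread within WT was wider than the difference between genotypes, and the log2 fold change was -0.07 (SE 0.31, 95% interval -0.83 to 0.69, adjusted p = 0.939 from limma). Its level is uncertain, because 88.84% of the 31-base stretches of its transcripts in GENCODE M21 also occur in other annotated genes. One is *Gm49388*, listed at 0 in 3 libraries and at 0.726 TPM in KO replicate 3. The other is *9430064I24Rik*, which is not listed among the genes with TPM values. For the other 9 members at most 1.13% of these stretches were shared.

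The KO means of the peroxisomal enzymes were 1.12 times (*Amacr*) and 0.941 times (*Acox2*) those of WT. *Amacr* (chromosome 15, 10981756 to 10996626, forward strand), a racemase that prepares the side chain for oxidation, was at 63.4 and 57.3 TPM for WT, against 61.3 and 73.3 TPM for KO (log2 fold change 0.15, SE 0.18, adjusted p = 0.762 from limma). *Acox2* (chromosome 14, 8225511 to 8259353, reverse strand), the oxidase of branched-chain acyl-CoA and bile acid intermediates, was at 111 and 74.2 TPM for WT, against 102 and 72.2 TPM for KO (log2 fold change -0.08, SE 0.27, adjusted p = 0.925 from limma). Both genes overlapped between genotypes, and *Acox2* had a higher and a lower library in each genotype. The 95% intervals were -0.30 to 0.60 for *Amacr* and -0.76 to 0.60 for *Acox2*.

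The conjugating enzymes differed by at most 1.15-fold between libraries of 1 genotype. *Slc27a5* (chromosome 7, 12988346 to 12998192, reverse strand) encodes the bile acid CoA ligase, with 289 and 305 TPM for WT, against 282 and 258 TPM for KO. The genotypes did not overlap, with KO lower, but the interval contained 0 (log2 fold change -0.14, SE 0.16, 95% interval -0.54 to 0.27, adjusted p = 0.763 from limma). *Baat* (chromosome 4, 49489422 to 49506557, reverse strand) encodes the enzyme that transfers the bile acid to taurine. Its abundance was 105 and 121 TPM for WT, against 114 and 119 TPM for KO. Its KO values lay between the WT values (log2 fold change 0.04, SE 0.17, 95% interval -0.37 to 0.45, adjusted p = 0.937 from limma).

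Across the 10 genes, 4 were higher and 6 lower in KO by the fitted difference. The genotypes did not overlap for 3 of the 10, compared with 45.3% of all tested genes. Of these 3, *Cyp7b1* was higher (34.4% of all genes did not overlap with KO higher) and *Akr1d1* and *Slc27a5* were lower (10.9% of all genes). The median log2 fold change of the members was -0.05, compared with 0.15 over all tested genes, of which 66.7% were higher in KO. After TMM scaling 51.0% of all genes were higher and their median was 0.01, and the median of the members was -0.22. Relative to the median of all genes, *Cyp7b1* was higher by 0.78 and *Akr1d1* was -0.61. Under TMM scaling *Cyp27a1* also no longer overlapped, with KO lower, and *Amacr* (-0.01) and *Baat* (-0.12) turned direction, as *Baat* did under upper quartile scaling (-0.09).

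The size of a difference between genotypes can be read against the differences between libraries of 1 genotype. The difference between the genotype means exceeded both within-genotype differences for 3 of the 10 genes (*Cyp7b1*, *Akr1d1* and *Slc27a5*), compared with 31.6% of all tested genes. For *Cyp7b1* it was 0.94 on the log2 scale, while the libraries differed by 0.50 within WT and by 0.22 within KO. For *Cyp7a1* the reverse held, with -0.39 between genotypes and 1.95 within KO. The members' median absolute log2 fold change was 0.14, compared with 0.26 over all genes.

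**Figure D3:**
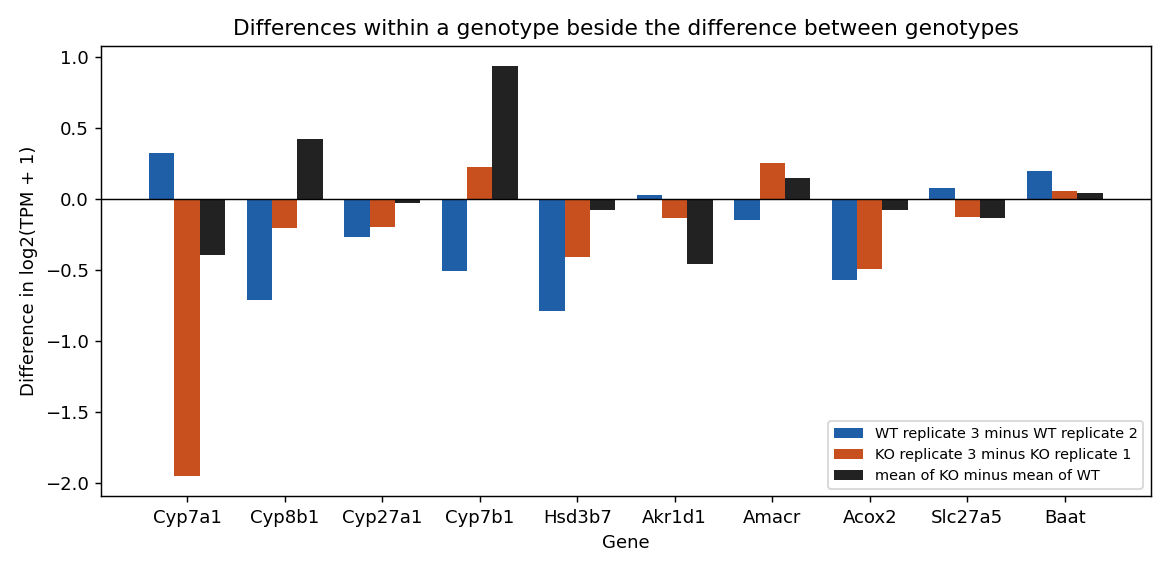
Differences in log2(TPM + 1) for each gene, as bars from 0: WT replicate 3 minus WT replicate 2 (blue), KO replicate 3 minus KO replicate 1 (orange) and mean of KO minus mean of WT (black). The black bar is the longest of the set for *Cyp7b1*, *Akr1d1* and *Slc27a5*, and the orange bar of *Cyp7a1* (-1.95) is the longest of all.

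Other genes of the pathway were read from lists of known members. Of 11 further bile acid enzymes and carriers, 9 passed the filter, 7 of them higher in KO and 2 lower (6 and 3 after TMM scaling). Their median log2 fold change was 0.33, beside 0.15 over all tested genes. After TMM scaling these medians were 0.18 and 0.01. None had an adjusted p under 0.05 in limma, while 2 had an unadjusted p under 0.05 (10.5% of all genes). The genotypes did not overlap for 6 of the 9, compared with 45.3% of all genes, with 5 higher (34.4% of all genes) and 1 lower (10.9%). *Scp2*, a sterol carrier whose longer product is the peroxisomal thiolase of side chain shortening, had the highest abundance, 2083 and 1916 TPM for WT, against 2656 and 2701 TPM for KO (log2 fold change 0.42, SE 0.19, adjusted p = 0.494). The others that were higher without overlap are named because of their values. They were *Cyp2c70*, the enzyme that makes muricholic acids in mice (0.45), *Slc27a2*, a very long chain acyl-CoA synthetase (0.43), *Abcd3*, the peroxisomal importer of bile acid intermediates (0.37), and *Cyp39a1*, an oxysterol 7α-hydroxylase (0.33), all as log2 fold changes. After TMM scaling the values of *Cyp2c70*, *Slc27a2*, *Abcd3* and *Cyp39a1* were 0.28, 0.27, 0.21 and 0.18. The 1 lower gene was *Cyp2a12*, a bile acid hydroxylase of mouse liver (-0.11, and -0.28 after TMM scaling).

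The microsomal P450 enzymes of the pathway receive electrons from cytochrome P450 reductase, encoded by *Por*, while CYP27A1 receives them from the ferredoxin FDX1. *Por* was at 175 and 168 TPM for WT, against 81.8 and 81.4 TPM for KO, so each KO value was under each WT value. Its log2 fold change was -1.06 (SE 0.15, 95% interval -1.45 to -0.68), with an unadjusted p of 0.000631 and an adjusted p of 0.203 in limma. The direction held under upper quartile (-1.19) and TMM scaling (-1.23). *Cyb5a*, the cytochrome b5 that can pass on electrons to P450 enzymes and the most abundant of the list, was at 1447 and 1673 TPM for WT, against 1351 and 1300 TPM for KO (-0.23, adjusted p = 0.658 from limma). Of the 5 electron donors, 2 were higher and 3 lower, and the 2 that did not overlap (45.3% of all genes) were both lower (10.9% of all genes).

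Of 7 regulators known to repress *Cyp7a1* or *Cyp8b1*, 4 were higher in KO and 3 lower. The genotypes did not overlap for 5 of them, 3 with KO higher (34.4% of all genes) and 2 with KO lower (10.9% of all genes). *Nfil3*, a repressor that competes with DBP for D-box sites, was at 3.86 and 8.13 TPM for WT, against 17.0 and 24.5 TPM for KO, and the genotypes did not overlap (log2 fold change 1.69, SE 0.36, adjusted p = 0.436 from limma). The bile acid receptor FXR, encoded by *Nr1h4*, was at 35.2 and 39.4 TPM for WT, against 33.4 and 27.0 TPM for KO. Its log2 fold change was -0.30 (adjusted p = 0.578 from limma), and both KO libraries were lower. The count that did not overlap, 5 of 7, stands beside 45.3% for all genes.

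Of 10 regulators known to activate these genes, 5 were higher and 5 lower (4 and 6 after TMM scaling), and 7 did not overlap (45.3% of all genes), 4 with KO higher (34.4% of all genes) and 3 with KO lower (10.9% of all genes). *Ppargc1a* is on this list and was chosen by the study on these libraries, so it is not independent evidence of a direction. *Dbp*, a clock-controlled PAR bZIP factor that activates *Cyp7a1*, was at 56.8 and 41.3 TPM for WT, against 4.73 and 4.97 TPM for KO. It was the 1 regulator with an adjusted p under 0.05 (0.0835% of all genes), with a log2 fold change of -3.08 (adjusted p = 0.0193 in limma). That call was lost without the filter on low values (adjusted p = 0.0577), without moderated variances (0.438) and with any 1 library left out, and in the second table, with 1 to 7 reads per library, the sign was opposite (1.52). *Tef*, of the same family, was at 17.0 and 21.3 TPM for WT, against 8.23 and 8.997 TPM for KO (-1.06, adjusted p = 0.402 from limma). *Hlf*, also of that family, was at 7.43 and 7.02 TPM for WT, against 4.32 and 4.37 TPM for KO. Its log2 fold change was -0.62 (adjusted p = 0.464 from limma). *Dbp*, *Tef* and *Hlf* were the 3 activating regulators that did not overlap with KO lower. *Hnf4a*, the factor whose site is printed for *Cyp8b1*, was the most abundant of the list, at 112 and 105 TPM for WT, against 171 and 155 TPM for KO. Its genotypes did not overlap, with a log2 fold change of 0.59 (SE 0.16, unadjusted p = 0.0123, adjusted p = 0.464 from limma). Whether any of these regulators bears on the members was not tested. The hour of collection is not given, and its part in these values was not tested.

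**Figure D4:**
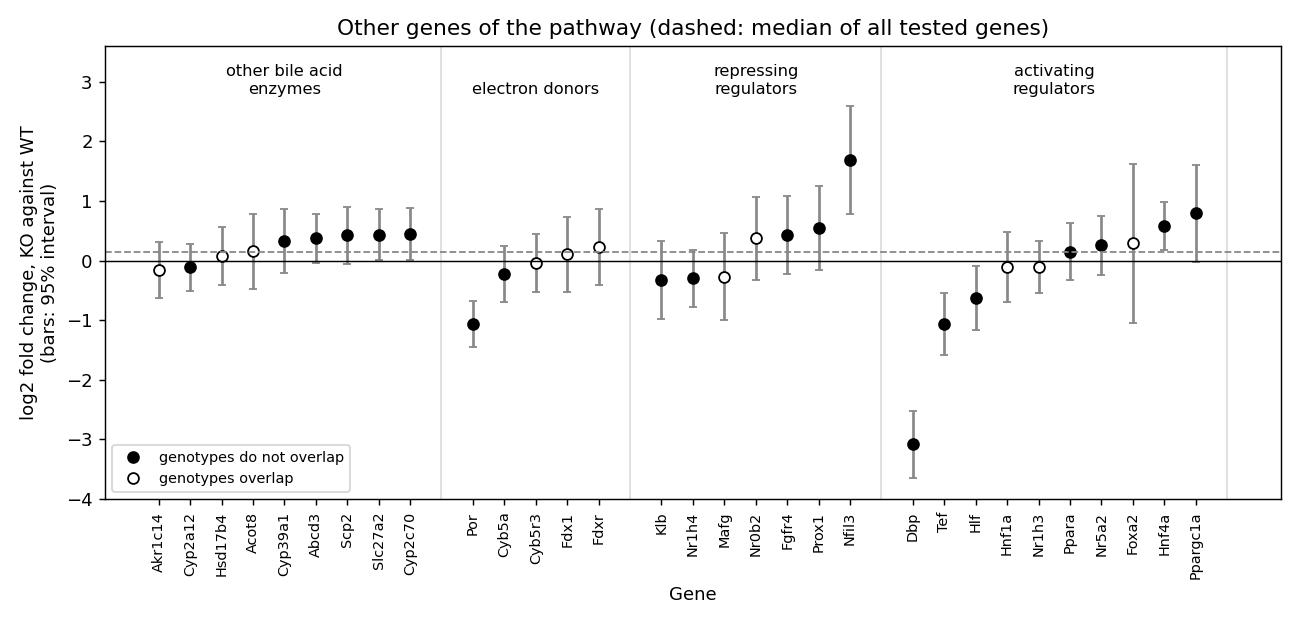
log2 fold change, *Usp21* KO against WT on log2(TPM + 1), of further genes of the pathway grouped by list, with 95% intervals from limma as bars; filled points do not overlap between genotypes, and the dashed line is the median of all tested genes (0.15). *Por* at -1.06 is the lowest electron donor, *Nfil3* at 1.69 the highest repressing regulator and *Dbp* at -3.08 the lowest activating one.

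The targeted gene itself was at 4.07 and 6.29 TPM for WT, against 1.64 and 2.93 TPM for KO, the direction that the labels give (log2 fold change -0.92, SE 0.33, adjusted p = 0.464 from limma). The deletion covers 2 of its 13 exons, so reads from the others can remain. Of the 6 hepatocyte markers 5 were found, with *Alb* (albumin) the most abundant, and they summed to between 57037 and 71435 TPM in WT and between 48006 and 58361 TPM in KO. The hepatocyte sums overlapped between genotypes. By the fitted difference 4 hepatocyte markers were lower and 1 higher, and 0 had an adjusted p under 0.05 in limma. A difference in hepatocyte number and one in RNA per hepatocyte cannot be told apart in bulk liver, and neither was tested. The pericentral markers, with *Cyp2e1* the most abundant, belong to the zone where *Cyp7a1* is known to be expressed most. Of these 6 markers, 4 were tested and all 4 were lower in KO (median -0.31). Of them, 3 were lower without overlap, beside 10.9% of all genes. The untested pericentral markers, *Lgr5* and *Axin2*, were under the filter on low values, with KO means 1.05 and 1.38 times those of WT. The pericentral sums were from 3830 to 5791 TPM in WT and from 3610 to 3891 TPM in KO. The periportal markers, with *Ass1* the most abundant, were higher for 6 of 6 (3 of 6 after TMM scaling) and 2 were higher without overlap, near the 34.4% of all genes, with sums from 3395 to 3667 TPM in WT and from 3459 to 4974 TPM in KO. Cholangiocyte markers summed to 14.6 and 15.9 TPM for WT, against 38.0 and 24.5 TPM for KO, mainly from *Spp1*, while *Krt7*, *Krt19*, *Epcam* and *Cftr* were at or under 1.28 TPM and *Cftr* was at 0 in 2 libraries. Stellate cell markers, with *Dcn* the most abundant, summed to 43.2 to 55.7 TPM in WT and 67.3 to 89.9 TPM in KO, and Kupffer cell markers, with *Clec4f* the most abundant, to 88.5 to 100.03 TPM and 51.6 to 135 TPM. *Rgs5*, a marker of stellate cells and pericytes, was at 3.81 and 2.62 TPM for WT, against 13.6 and 8.58 TPM for KO (log2 fold change 1.51, SE 0.31, adjusted p = 0.405 from limma). Sinusoidal endothelial markers, with *Clec4g* the most abundant, summed to 41.2 to 55.3 TPM in WT and 46.0 to 62.9 TPM in KO, erythroid markers (*Hbb-bs* the most abundant) to 564 to 598 TPM and 437 to 577 TPM, and lymphocyte markers (*Cd79a* the most abundant) to at most 2.59 TPM. The part of these markers in the members' values was not tested.

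A second table holds HTSeq counts that the authors scaled to library size, from which between 102898 and 148164 whole reads per library were recovered. It lists 5 of the 10 members at 0 in all 4 libraries, *Cyp7b1*, *Akr1d1* and *Cyp7a1* among them, and the other 5 with at most 8 reads in a library (*Slc27a5* in KO replicate 1). At 0, a gene may still have up to 3 reads by counting error alone, which is worth 20.04 to 27.67 units of that table. That bound cannot be relied on here, because reads did not follow TPM. *Alb*, at 27475 TPM or more in every library, had 9 and 6 reads for WT and 2 and 1 for KO. *Cyb5r3*, at 151 to 190 TPM, had 107 and 163 reads for WT and 159 and 93 for KO. Of 682 genes with at least 100 TPM that are in both tables, 428 were at 0 in the second table. Differences of *Cyp7b1* and *Akr1d1* between genotypes were therefore not detectable in that table, and the values above rest on the TPM table alone.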

How the data were processed

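RNA-seq of liver was analysed for WT replicates 2 and 3 and *Usp21* KO replicates 1 and 3, grouped by their labels. The authors estimated TPM per gene with salmon and deposited them. They also deposited a signal per gene, HTSeq counts divided by TMM effective library sizes (CPM). The labels name mm10, and tool versions, annotation and strand setting are not given in the sources used here. The log2 tables hold transformed copies of both and were not used.

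The 9581 genes whose mean reached 1 TPM were tested on log2(TPM + 1) with limma 3.58.1 in R 4.3.3 (lmFit, eBayes with a trend), two-sided, with Benjamini-Hochberg adjustment. A fold change on this scale understates that of low genes. TPM keep no depth, so the depth behind them is unknown. From the CPM, 100% of values gave whole reads (tolerance 0.02), which were tested with edgeR 4.0.16 and DESeq2 1.42.0. The scripts were tested on simulated data. Coordinates and transcripts come from GENCODE M21 (GRCm38).

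The members and lists were chosen with earlier results of these data known. All members are named. A list gene is named if its adjusted p is under 0.05, if it differs at least 2-fold without overlap, or if it is the most abundant of its list by its mean TPM over the libraries, and other names were chosen after their values were seen. Alternatives were pseudocounts of 0.1 and 5, no filter or a mean of 5 TPM, 2 scalings, limma without moderation or trend, the CPM table and each library left out.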

Additional observations from a re-analysis of the deposited data

How the results depend on the processing

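The number of members with an adjusted p under 0.05 was 0 in limma and in every alternative that kept all 4 libraries. At an unadjusted p under 0.05 there were 2 in limma. Without moderation 0 of all tested genes passed, so the count of members says little there. The fits to the CPM values and reads held only 5 members, *Cyp7b1* and *Akr1d1* not among them, and could not test these. *Cyp7b1* and *Akr1d1* kept their direction in all 12 alternatives that gave them a value. Their unadjusted p did not always stay under 0.05. In limma it was 0.0770 for *Cyp7b1* without moderation and 0.0685 for *Akr1d1* without the variance trend. In the other TPM alternatives with all 4 libraries it stayed under 0.05 for both genes. With single libraries left out, the log2 fold change ran from -1.37 to 0.58 for *Cyp7a1*, from -0.16 to 0.11 for *Cyp27a1*, from -0.47 to 0.32 for *Hsd3b7*, from -0.36 to 0.21 for *Acox2* and from -0.0584 to 0.14 for *Baat*, the median of the members from -0.16 to 0.16, the number without overlap from 5 to 8 (a group of 1 library overlaps less easily) and the number of genes called among all tested from 0 to 0, compared with 8. *Cyp7a1* was higher in KO without KO replicate 3, *Baat* lower without WT replicate 2, and *Cyp27a1*, *Hsd3b7* and *Acox2* higher without WT replicate 2 or KO replicate 3. The lone library is assumed to vary like the other genotype.

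The members' median was -0.18 with upper quartile scaling and -0.22 with TMM scaling, where *Baat* was at -0.0921 and -0.124 and *Amacr*, with TMM scaling, at -0.0130. The median of all genes was then 0.04 and 0.01. In the CPM table only 5 members have reads, at most 8 in a library, so their values mean little. *Cyp27a1*, with 1 read in all, was at 1.47 (limma), 2.27 (edgeR) and 1.26 (DESeq2), *Cyp8b1* at -0.0846, -0.0948 and -0.113, *Amacr*, also with 1 read, at the same values as *Cyp27a1*, *Slc27a5* at -1.83, 0.24 and 0.11, and *Baat* at 0.12, -0.0676 and 0.0777, in that order of tools. The members' median there was 0.12, 0.24 and 0.11, and 0 members did not overlap. The number of genes called among all tested was 4 with no filter, 0 without moderation, and from the CPM values it was 1 (limma), 12 (edgeR) and 1 (DESeq2). The causes of these shifts were not tested. No paired analysis was possible because the genotypes share only 1 replicate number.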
